A study of Mus musculus with 12 samples.

Results

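Alternative splice sites more than 150 and at most 1000 nt apart were examined in nascent RNA from mouse embryonic stem cells (mESCs). These are places where a splice site was joined to 1 of 2 alternative sites, which gave a longer and a shorter intron. The bases between the alternative sites lie within the longer intron, and the shorter form either keeps them as an extension of the exon or uses the inner site as the edge of an exon of its own. They were taken from splicing clusters of exactly 2 introns that share their start or their end and whose lengths differ by more than 150 and at most 1000 nt, and the longer intron was the reference form. The rule used positions and not splicing values. It found 527 pairs of introns among the 7263 tested clusters. There were 3448 clusters of 2 introns with a shared site in all, of which 1418 had sites 1 to 30 nt apart, 838 had sites 31 to 150 nt apart, 493 had sites over 1000 and up to 10000 nt apart and 172 had sites over 10000 nt apart.

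The cells were a female mESC line, a hybrid of Cast and 129S mice, grown on feeder cells, with a doxycycline-inducible *Xist*. In all samples, *Mettl3* carried FKBP12 F36V at its C-terminus, a tag that lets the small molecule dTAG-13 recruit the protein for degradation. The dTAG group was treated with dTAG-13 for 3 h and the Ctrl group was untreated, and both were then labelled with 4-thiouridine (4sU) for 30 min before the labelled RNA was sequenced. Each group held 6 samples, 3 from each of 2 clones, C3 and H5, so the cells trace back to a small number of edited clones. LeafCutter had fitted 1 percent spliced in (PSI) value per intron and condition with both clones pooled. PSI is given here as a fraction, the share of the split reads of a cluster that use the intron, and in a pair the PSI of the longer and the shorter intron add to 1.

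Each PSI below is thus the authors' value for a condition. It comes with no SD and no value per sample. The paper set a minimum of split reads for a cluster to be used, but the number of reads behind each value is unknown here. The authors deposited a test for each cluster, which was not used here as it is their own comparison. No test against the spread between replicates was therefore made, and a difference of at least 0.1 was used as a rule of size. Differences are dTAG minus Ctrl for the longer intron. Of the mESC markers looked for, 8 of 12 had a tested cluster (*Nanog*, *Klf4* and *Esrrb* among them), against 1 of 10 feeder fibroblast markers (*Fn1*) and 3 of 10 differentiation markers. A marker without a tested cluster is not shown to be silent.

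The spliceosome defines an intron by a 5′ splice site, which begins with GT in the gene, and a 3′ splice site, which ends with AG. When 2 sites of a kind compete, the choice moves the exon's edge, and over a distance of this size it adds or removes a whole block of sequence or selects another exon. METTL3 is the catalytic subunit of the writer of *N*6-methyladenosine (m6A), which is placed on RNA during transcription, most often at the A of GGACT and related motifs. The study asked how quick loss of METTL3 alters splicing of nascent RNA.

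The splice sites of the 4 pairs with the largest positive and the 4 with the largest negative difference are shown first, because the values below compare the use of these sites. Each is 30 bases of the GRCm38 genome, the same build as mm10, written 5′ to 3′ along the strand given by the splice motif. Unnamed pairs had no gene name to check this strand against, so it and their 5′ or 3′ label were taken from the motif alone. A 5′ splice site is shown with 10 exonic and 20 intronic bases and a 3′ splice site with 24 intronic and 6 exonic bases. Capitals mark the bases that were scored (3 exonic and 6 intronic at a 5′ site, 20 intronic and 3 exonic at a 3′ site).
Avl9, 5′ site of the longer intron, chr6:56736653-56736682, plus strand: caagtagAAGGTAACAacaacaaaggacag
Avl9, 5′ site of the shorter intron, chr6:56736967-56736996, plus strand: ctttacaAAGGTAAAAtggactgtccttta
Unnamed pair on Y, 5′ site of the longer intron, chrY:90800919-90800948, plus strand: actcgtgCAGGTTTAAattagaacctgcaa
Unnamed pair on Y, 5′ site of the shorter intron, chrY:90801205-90801234, plus strand: actcgtgCAGGTTTAAattagaacctgcaa
Ccdc88c, 5′ site of the longer intron, chr12:100923160-100923189, minus strand: cgcaccaAAGGTGAGTacggcccctctaaa
Ccdc88c, 5′ site of the shorter intron, chr12:100922172-100922201, minus strand: ctgccagTGGGTAGGTaactgatttaaata
Brwd1, 5′ site of the longer intron, chr16:96008118-96008147, minus strand: taatctaCAGGTAACCcagaagtcacccaa
Brwd1, 5′ site of the shorter intron, chr16:96007817-96007846, minus strand: gtgctgtTTGGTGAGGaattgaatgcactc
Pitpnb, 5′ site of the longer intron, chr5:111346573-111346602, plus strand: aagtaagCTGGTCCCCgaggcattgcaccc
Pitpnb, 5′ site of the shorter intron, chr5:111347118-111347147, plus strand: agttgtaACGGTGAGTagcacacactcttc
Unnamed pair on 4, 252 nt, 5′ site of the longer intron, chr4:147754918-147754947, plus strand: catttatAAGGTTTCTctcctgtatgaatt
Unnamed pair on 4, 252 nt, 5′ site of the shorter intron, chr4:147755170-147755199, plus strand: catttgtAAGGTTTCTctcctgtatgaatt
Cdk2ap2, 5′ site of the longer intron, chr19:4097498-4097527, plus strand: gtccctaCAGGTGAGGctccaactccatcc
Cdk2ap2, 5′ site of the shorter intron, chr19:4097724-4097753, plus strand: gccgttgGAGGTTAGTcaagggaacagtcc
Unnamed pair on 4, 335 nt, 3′ site of the longer intron, chr4:147391346-147391375, minus strand: tgtcACATTCACTGCATTTATAAGGTTtct
Unnamed pair on 4, 335 nt, 3′ site of the shorter intron, chr4:147391681-147391710, minus strand: tgtcACATTCACTACATTTGTAAGGTTtct

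The longer intron was higher in dTAG by at least 0.1 in 26 of the 527 pairs (4.93%) and lower by at least 0.1 in 6 (1.14%). Over all 3448 clusters of 2 introns with a shared site, the longer intron was higher by that much in 2.00% and lower in 1.77%. Either way the share was 6.07% of the 527 pairs, against 3.77% of the 3448, and in 4.63% of all 7263 tested clusters at least 1 intron differed by 0.1 or more. The imbalance lay in the tail and depended on the scale, as a natural log odds difference of at least 1 was reached by 23 pairs on the higher and 10 on the lower side. The median difference over the 527 pairs was 0.000153, with 269 pairs above 0 and 258 below, and the median size of the difference was 0.0157. Over the 3448 clusters the median difference was -0.000427 and the median size 0.0149. In 425 of the 527 pairs the difference was under 0.05 either way.

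**Figure D1:**
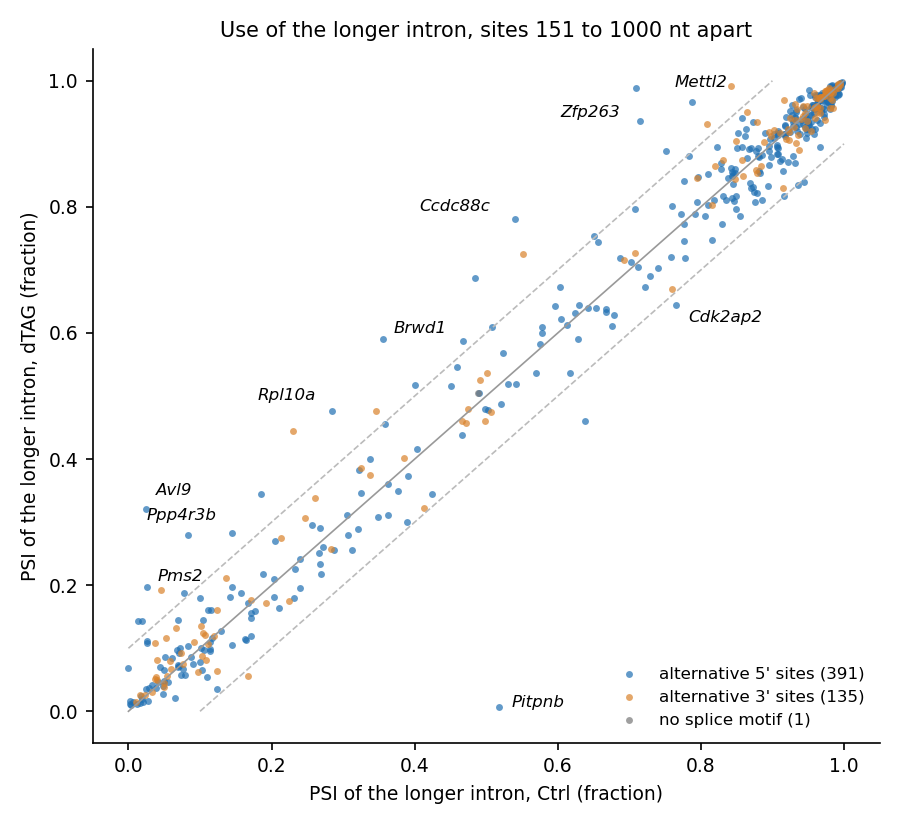
PSI of the longer intron in dTAG (y axis, fraction) against Ctrl (x axis, fraction) for the 527 pairs, 1 point per pair, with alternative 5′ sites in blue, alternative 3′ sites in orange and equal PSI on the solid line. Of the points outside the dashed lines at a difference of 0.1, 26 lie above and 6 below, and *Pitpnb* lies farthest from the diagonal.

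With larger distances the pairs past 0.1 became more common either way (1.83%, 2.39%, 6.07%, 7.30% and 9.30% from the closest to the widest class), but the balance of directions differed between distance classes. Among sites 1 to 30 nt apart, the longer intron was higher in 7 pairs (0.494%) and lower in 19 (1.34%). Among sites 31 to 150 nt apart the counts were 9 (1.07%) and 11 (1.31%). The counts among sites over 1000 and up to 10000 nt apart were 20 (4.06%) and 16 (3.25%), and among sites over 10000 nt apart 7 (4.07%) and 9 (5.23%). The excess of higher over lower was widest in the pairs described here, of the 5 classes, as counts with no test. On the log odds scale the 23 and 10 of these pairs stood beside 17 and 12 in the class of over 1000 and up to 10000 nt and 55 and 43 in all 3448. Within the class, the counts higher and lower were 11 and 2 at up to 300 nt (212 pairs), 6 and 1 above that and up to 500 nt (135 pairs), and 9 and 3 above 500 nt (180 pairs). On the log odds scale the middle bin had 2 and 2. At the edges of the rule, the 10 pairs in the first 5 nt above 150 nt had differences of -0.0521 to 0.0147, and the 9 pairs in the 5 nt up to 150 nt had -0.0849 to 0.0666. The 7 pairs in the 20 nt up to 1000 nt had -0.0100 to 0.241, and the 3 pairs in the 20 nt above had -0.00809 to 0.149.

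**Figure D2:**
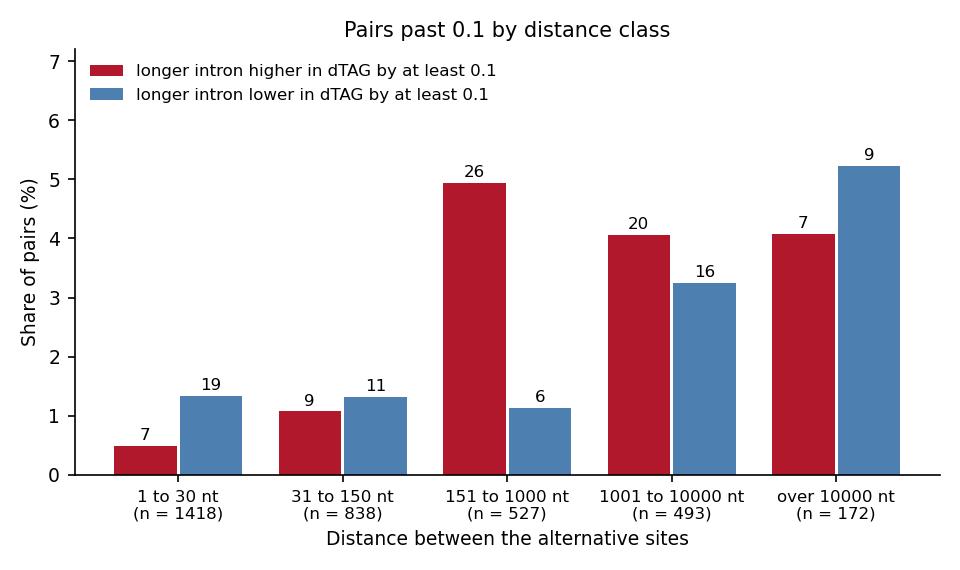
Share of pairs (y axis, %) in which the longer intron was higher (red) or lower (blue) in dTAG by at least 0.1, for 5 classes of distance between the sites (x axis), with the number of pairs above each bar. The class of more than 150 and at most 1000 nt has 26 higher against 6 lower.

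The use of the longer form set these pairs apart from those with closer sites. The longer intron was the major form (PSI over 0.5) in 360 of 527 pairs (68.3%) in untreated cells, against 36.9% of pairs with sites 1 to 30 nt apart, 36.5% at 31 to 150 nt, 82.8% over 1000 and up to 10000 nt and 66.9% over 10000 nt. Its median PSI was 0.865 in dTAG and 0.862 in Ctrl. In 188 pairs the minor form took under 0.05 in Ctrl, and in 117 it took over 0.2. The major form differed between dTAG and Ctrl in 14 pairs, to the longer form in 9 and to the shorter in 5, and 6 of those 14 differed by 0.1 or more. Among the 117 pairs with the longer intron at 0.2 to 0.8 in Ctrl, it was higher by at least 0.1 in 15 and lower in 3.

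By the strand of the splice motif, 391 pairs had alternative 5′ sites and 135 had alternative 3′ sites, and 1 unnamed pair on chromosome 2 had no recognised motif. Both introns had GT and AG ends in 512 pairs, and in 14 an intron had GC and AG ends. The longer intron was higher by at least 0.1 in 20 of the 391 pairs with alternative 5′ sites (5.12%) and lower in 5 (1.28%). At alternative 3′ sites the counts were 6 of 135 (4.44%) and 1 (0.741%). The median differences were -0.000914 at 5′ sites and 0.00365 at 3′ sites, and 80 of 135 pairs with alternative 3′ sites were above 0, against 188 of 391 with alternative 5′ sites. A gene name was given for 516 of the pairs, and 506 names were found in all. In 14 pairs several names were given and 11 had none.

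What the shorter form adds to the RNA was read from the GENCODE vM21 gene models. The annotated exon with its edge at the inner site reached across the outer site in 113 pairs, here called an extension. It was an exon of its own in 211, annotated in both ways in 52, and not annotated in 150. An extension did not need an annotated intron at the outer site. In *Avl9* and *Ppp4r3b*, for example, the longer intron is not annotated and takes out bases of an annotated exon. Of the 175 own exons at alternative 5′ sites, 132 were first exons of a transcript, so that these pairs join different first exons to a shared 3′ site. In them the PSI compares transcripts with different first exons, so the sites need not compete within the same RNA. How far the use of different transcript starts set their PSI was not tested. Extensions held 12 of the 26 pairs that were higher by 0.1 or more and 1 of the 6 that were lower, and own exons held 7 and 3. Among the 132 pairs with alternative first exons the counts were 4 higher and 2 lower. The difference between the sites was a multiple of 3 in 204 of 527 pairs (38.7%). Where an extension could be read in the frame of a coding transcript, it held an in-frame stop codon in 25 of 34 pairs at alternative 5′ sites and in 19 of 29 at alternative 3′ sites. Where the distance was a multiple of 3, the counts were 9 of 16 and 7 of 16, and where it was not, 16 of 18 and 12 of 13. The share that stretches of these lengths would hold by chance was not computed. Of the pairs with such a reading, 4 of the 6 that were higher by at least 0.1 held a stop, as did the 1 that was lower.

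The share of pairs past 0.1 differed between the annotation groups, and so did the PSI in Ctrl. Both introns were annotated in 307 pairs, the longer only in 143, the shorter only in 64 and neither in 13. The longer intron was higher by at least 0.1 in 13 of 307 (4.23%), 1 of 143 (0.699%), 8 of 64 (12.5%) and 4 of 13, and lower in 3, 0, 1 and 2. The longer intron was mostly a minor form where only the shorter was annotated, with a median PSI of 0.0967 in dTAG and 0.0808 in Ctrl, and 41 of the 64 differences were above 0. Where only the longer was annotated, its median PSI was 0.956 in dTAG and 0.960 in Ctrl, and the minor form took under 0.05 in Ctrl in 80 of 143. Most of the latter had little room to rise, and most of the former little room to fall. How far this bound set the counts was not tested. In 43 pairs the longer intron belonged to coding transcripts and the shorter to transcripts marked for nonsense-mediated decay and not to coding ones. In 2 of these 43 the longer intron was higher by at least 0.1 and in 0 lower, and their median difference was -0.00432.

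**Figure D3:**
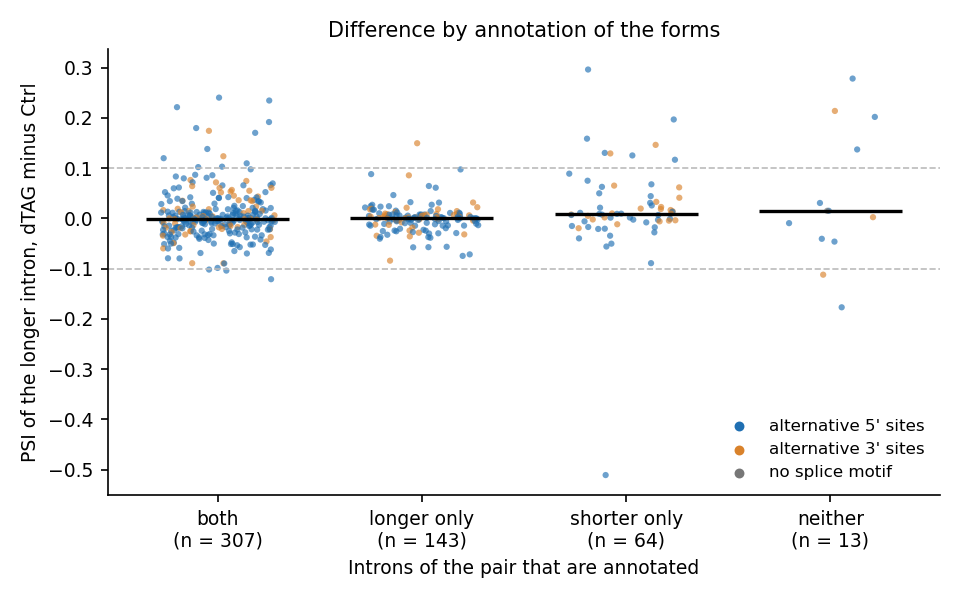
Difference in PSI of the longer intron, dTAG minus Ctrl (y axis), for pairs in which both introns, the longer only, the shorter only or neither is annotated (x axis), 1 point per pair in the colours of its site type and a bar at the median. The medians lie between -0.00115 and 0.0152, and 8 of the 64 pairs with only the shorter intron annotated lie above 0.1.

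Coordinates of introns below are those of the deposited tables on mm10 and name the exon base on each side of the intron. The genes of the 10 largest and the 10 smallest differences are described first. *Avl9*, whose yeast homologue acts late in secretion, had the largest positive difference. Its longer intron (chr6:56736662-56741369) had a PSI of 0.321 in dTAG and 0.0241 in Ctrl, a difference of 0.296. That intron is not annotated, while the shorter one, whose 5′ site lies 314 nt downstream, belongs to coding transcripts, so a form that was rare in Ctrl was a sizeable minor form in dTAG. The scored bases of the outer site gave 6.74 and those of the inner site 5.6 (log2 units, higher for bases closer to other annotated sites in these data).

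*Ccdc88c*, a Dishevelled-binding protein of the Wnt pathway, had a PSI of 0.781 in dTAG and 0.540 in Ctrl for its longer intron (chr12:100921595-100923180). The inner site, 988 nt downstream, ends a first exon of its own in a non-coding transcript. Another cluster of the gene had an intron that differed by 0.331. In *Brwd1*, a bromodomain and WD repeat protein of chromatin, the longer intron (chr16:96005130-96008138) had 0.591 in dTAG and 0.356 in Ctrl, so that the major form was the longer in dTAG and the shorter in Ctrl. Its outer site scored 10.1 and its inner site 3.65, and the 4 other clusters of the gene differed by at most 0.0517.

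*Zfp263*, a zinc finger protein, had 0.936 in dTAG and 0.715 in Ctrl (chr16:3744767-3745777). In its shorter form 745 nt stay in the RNA, with an in-frame stop, and the annotation marks that form for nonsense-mediated decay. *Rpl10a*, a protein of the large ribosomal subunit, followed the same layout over 233 nt, with 0.477 in dTAG and 0.285 in Ctrl (chr17:28329047-28329374), and the 1 other cluster of the gene had an intron that differed by 0.105. *Mettl2*, a tRNA methyltransferase, had 0.967 in dTAG and 0.787 in Ctrl (chr11:105126867-105128741), and its 574 nt also hold an in-frame stop. In these 3 genes the share of the form without the extra block was higher in dTAG than in Ctrl, and in *Rpl10a* it was the minor form in both. *Ppp4r3b*, a regulatory subunit of protein phosphatase 4, had 0.280 in dTAG and 0.0829 in Ctrl for an unannotated longer intron (chr11:29188286-29194573) whose site scored 4.38, against 12.1 for the inner site.

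The other 3 of the 10 pairs with the largest positive differences carry no gene name, and neither of their introns is annotated. A pair on Y (chrY:90800928-90802840) had 0.988 in dTAG and 0.710 in Ctrl. It lies within the gene model Gm47283, at the end of the chromosome that pairs with X. The line is female, and the 30 bases shown for the outer and the inner site are the same. A pair on chromosome 13 (chr13:66670185-66670522) had 0.444 in dTAG and 0.230 in Ctrl, and one on chromosome 4 (chr4:147058392-147058645) had 0.687 in dTAG and 0.485 in Ctrl.

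The lower side had fewer pairs and the largest single difference. *Pitpnb*, a phosphatidylinositol transfer protein, had a PSI of 0.00746 in dTAG and 0.518 in Ctrl for its longer intron (chr5:111346582-111347781), a difference of -0.511. That intron is not annotated, and its 5′ site scored 4.11, against 8.0 for the inner site 545 nt downstream. The 2 other clusters of the gene differed by at most 0.0261. As 1 value stands for all 6 samples of a condition, it cannot be seen here whether all samples or a few carried the form.

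*Cdk2ap2*, a CDK2-associated protein, had 0.644 in dTAG and 0.765 in Ctrl (chr19:4097507-4097817), with an in-frame stop in the 226 nt of the shorter form. *Dhx30*, an RNA helicase of the mitochondrial ribosome's assembly, had 0.840 in dTAG and 0.943 in Ctrl (chr9:110115582-110117358), and *Akap8l*, a nuclear matrix protein, had 0.834 in dTAG and 0.936 in Ctrl (chr17:32333144-32334588). In both the inner site ends an alternative first exon and has the lower score. 2 unnamed pairs on chromosome 4 completed the 6, with 0.461 in dTAG and 0.638 in Ctrl (chr4:147754927-147755264) and with 0.0555 in dTAG and 0.167 in Ctrl (chr4:147391351-147391771). The 4 next pairs fell short of 0.1. *Ints14*, a subunit of the Integrator complex, had 0.818 in dTAG and 0.916 in Ctrl, and *Aste1* had 0.300 in dTAG and 0.389 in Ctrl. The endosomal sorting nexin *Snx27* had 0.323 in dTAG and 0.412 in Ctrl, and *Ivns1abp*, a kelch-repeat protein, had 0.670 in dTAG and 0.760 in Ctrl.

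The remaining 16 pairs that were higher by 0.1 or more had differences of 0.102 to 0.174, and they were taken up because they passed that size. DNA repair, with *Pms2* and *Slx4*, and 3′ end formation, with *Pcf11*, are given with the gene lists below. The E3 ubiquitin ligase *Rnf216* had 0.725 in dTAG and 0.551 in Ctrl at alternative 3′ sites of coding transcripts. *Apc*, the inhibitor of Wnt signalling, had 0.476 in dTAG and 0.346 in Ctrl, and *Rreb1*, a zinc finger transcription factor downstream of Ras, had 0.283 in dTAG and 0.145 in Ctrl. Low PSI in Ctrl was common among them, as with the TatD nuclease *Tatdn2* (0.144 in dTAG, 0.0134 in Ctrl) and the mitochondrial translation factor *Guf1* (0.192 in dTAG, 0.0452 in Ctrl). The acetyltransferase *Kat14* had 0.187 in dTAG and 0.0774 in Ctrl, and its outer site had a score of 0.509, against 6.30 for the inner site. *Nom1*, a nucleolar protein, had 0.344 in dTAG and 0.185 in Ctrl for an unannotated longer intron.

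In 4 other pairs of this group with gene names the longer form was the major one in both conditions. The values were 0.932 in dTAG and 0.808 in Ctrl for *Triml1*, a member of the tripartite motif-like family, and 0.992 in dTAG and 0.842 in Ctrl for the uncharacterised 1810030O07Rik. The tRNA methyltransferase *Trmt5* had 0.754 in dTAG and 0.651 in Ctrl, and *Nudt9*, an ADP-ribose pyrophosphatase, had 0.610 in dTAG and 0.507 in Ctrl. The last 2 of the 16 were Gm21811, with 0.517 in dTAG and 0.400 in Ctrl, annotated as an unprocessed pseudogene and so uncertain, and an unnamed pair on chromosome 13 (chr13:65512348-65512769), with 0.889 in dTAG and 0.751 in Ctrl. Over all 26 pairs the median PSI was 0.552 in dTAG and 0.378 in Ctrl. The longer intron was the major form in Ctrl in 10 (38.5%), against 69.8% of the pairs that differed by less than 0.1. These shares are not independent of the choice by size, since a longer intron near the top of the PSI scale in Ctrl has no room to rise by 0.1.

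**Figure D4:**
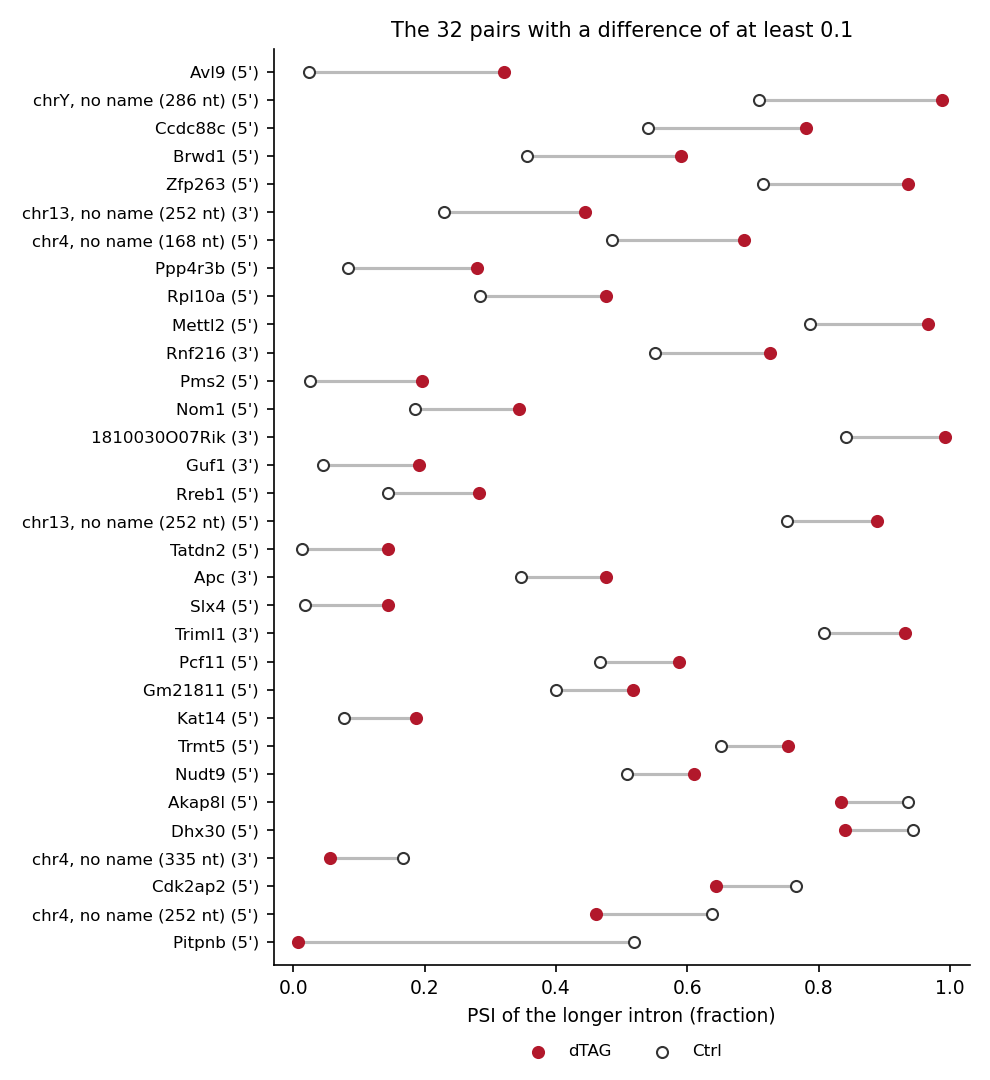
PSI of the longer intron (x axis, fraction) in dTAG (red) and Ctrl (open) for the 32 pairs with a difference of at least 0.1, ordered by difference, with the type of alternative site (5′ or 3′) after each name. The 26 higher pairs start from low and high PSI alike, and *Pitpnb* has the longest line of the 6 lower ones.

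Several of these pairs are uncertain because their sequence has near-identical copies. In 7 pairs the scored bases of both sites are the same, and 6 of those 7 are among the 13 with neither intron annotated. In 5 of the 13, on chromosomes 4 and 13, both intron lengths are multiples of 84 nt, which is the length of the unit that codes for 1 finger of C2H2 zinc finger genes, a family found in large arrays. A further unnamed pair on chromosome 11 lies within *Ubb*, which codes for head-to-tail copies of ubiquitin, and its introns are 456 and 228 nt long. It was singled out after its values were seen (0.644 in dTAG, 0.629 in Ctrl). How far reads of one copy were aligned to another was not tested. In the unnamed chromosome 4 pairs printed above, the longer introns share a run of bases at their alternative sites. That run is labelled a 5′ site in the first pair and a 3′ site in the second, so their strand and type are uncertain too. Without the 13 pairs, the counts were 22 higher and 4 lower.

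Splice site strength was weakly tied to use at alternative 5′ sites and showed no such tie at alternative 3′ sites. The pairs with alternative 5′ sites include the 132 with alternative first exons, which were not taken apart here. Scores came from a weight matrix of 14438 annotated introns of other clusters. At alternative 5′ sites the more used site in Ctrl had the higher score in 219 of 391 pairs (56.0%), and at alternative 3′ sites in 60 of 135 (44.4%). Over all pairs the share was 53.0%. Across the pairs, the score of the outer minus the inner site and the PSI of the longer intron in Ctrl had a Pearson r of 0.178 and a Spearman rho of 0.169 at 5′ sites. At 3′ sites the values were -0.0422 and -0.0532. These describe pairs of 1 pooled data set, which are not replicates. The median score was 6.38 for outer and 5.74 for inner 5′ sites. Among the 26 pairs that were higher by 0.1 or more, the outer site had the higher score in 12, and among the 6 lower ones in 4. Over all pairs it did in 217 of 391 at 5′ sites and 66 of 135 at 3′ sites.

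The stretch between the sites was searched for GGACT on the strand of the splice motif only. The motif was found in 150 of 391 stretches at alternative 5′ sites (38.4%) and in 41 of 135 at alternative 3′ sites (30.4%). As a comparison served the equally long piece of intron next to the inner site, where the shorter intron was long enough. At 5′ sites, 37.4% of the stretches of those 305 pairs held GGACT, against 30.8% of the neighbouring pieces, and at 3′ sites 28%, against 32%, over 100 pairs. GC content moved with the first of these, with a median of 58.2% in the stretches, against 48.1% in the neighbouring pieces at 5′ sites. At 3′ sites it was 44.5% against 41.0%. Its part in the counts of GGACT was not tested.

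GGACT was present in the stretch of 11 of the 26 pairs that were higher by at least 0.1 (42.3%), in 0 of the 6 lower ones, and in 180 of 494 others (36.4%). The share with GGACT in the 26 was thus close to that of the others, and the stretches were shorter, with a median of 305.5 nt against 370 nt. Per 1000 nt of stretch, GGACT occurred 1.30 times in the 26 and 1.12 times in the others. The wider motif DRACH (D is A, G or T, R is A or G, H is A, C or T) differed more. It occurred 22.2 times per 1000 nt in the 26, 12.1 times in the 6 lower pairs and 16.4 times in the others, which was not tested. The base composition differed as well, with a median GC content of 48.0% in the 26, 52.7% in the 6 and 53.9% in the others. Its part in the counts of DRACH was not tested. In *Avl9* the A of GGACT lies at base 181 of the 314 in the stretch, and in *Brwd1* at base 221 of 301, counted from the outer site. Both are shown with GGACT in capitals, since these are the matches in the stretches of the 8 pairs printed above (a further GGACT, just past the *Avl9* stretch, can be read in its inner site).
Avl9, chr6:56736831-56736855, plus strand: tattccaaaaGGACTctctgccctc
Brwd1, chr16:96007905-96007929, minus strand: ttacttctggGGACTcttcagtctc
*Mettl2* held 2 matches and *Triml1* 3. A match is a run of letters, and m6A at these bases was not measured in the files used here.

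**Figure D5:**
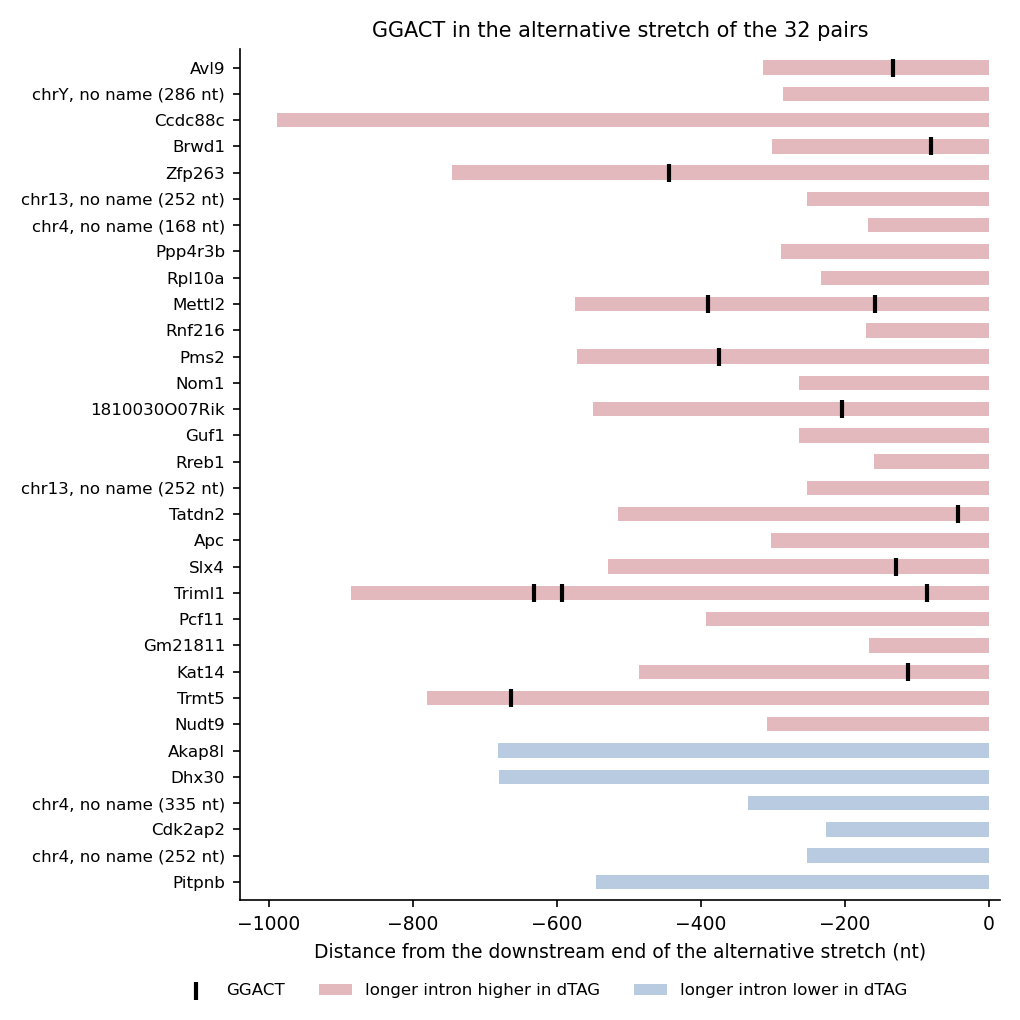
Stretches between the alternative sites of the 32 pairs with a difference of at least 0.1, drawn to scale as bars against the distance from their downstream end (x axis, nt), with the A of each GGACT as a black mark. Red bars are pairs with the longer intron higher in dTAG and blue bars pairs with it lower, and 11 red and 0 blue bars carry a mark.

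Gene lists showed few differences of this size. Beside the 4.93% of all 527 pairs that were higher and 1.14% that were lower by at least 0.1, the 7 pairs in DNA repair genes held 2 higher and 0 lower, and their median difference was -0.0117. *Pms2*, which acts in mismatch repair, had 0.196 in dTAG and 0.0260 in Ctrl (chr5:143925501-143928099). *Slx4*, a scaffold of structure-specific nucleases, had 0.144 in dTAG and 0.0185 in Ctrl for an unannotated intron (chr16:3999345-4001482). For *Brca2* the values were 0.438 in dTAG and 0.466 in Ctrl, and for the helicase *Rtel1* 0.914 in dTAG and 0.936 in Ctrl, so the list did not move as a whole.

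Of 9 pairs in genes of RNA decay and 3′ end formation, 1 was higher and 0 lower, with a median difference of 0.0107. This was *Pcf11*, a cleavage factor of pre-mRNA, with 0.587 in dTAG and 0.467 in Ctrl (chr7:92658866-92659798), both forms in coding transcripts and 393 nt of extension with no in-frame stop. The nearest others were *Cpsf2*, with 0.161 in dTAG and 0.111 in Ctrl, and the deadenylase *Cnot8*, with 0.160 in dTAG and 0.116 in Ctrl. For *Exosc10*, a nuclease of the exosome, the values were 0.971 in dTAG and 0.937 in Ctrl.

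Of 14 pairs in translation and ribosome genes, 1 was higher (*Rpl10a*) and 0 lower, and the median difference was 0.000911. *Rpl17* had 0.895 in dTAG and 0.967 in Ctrl, *Rpl13a* (named together with Gm45713) had 0.877 in dTAG and 0.913 in Ctrl, and *Rpl14* had 0.915 in dTAG and 0.939 in Ctrl. These 3 lay on the other side of 0 from *Rpl10a*.

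The other lists had no pair at 0.1. The 10 pairs of splicing factors had a median difference of 0.00195, with *Thrap3* farthest from 0 (0.0216 in dTAG, 0.0645 in Ctrl), followed by the branch point binding protein *Sf1* (0.536 in dTAG, 0.502 in Ctrl). *Rbm17* and *Prpf8*, a core protein of the spliceosome, differed by less than 0.01. Among the 13 pairs of chromatin and DNA methylation genes, the median was -0.00237, and *Tasor*, which acts in HUSH-mediated silencing, had 0.338 in dTAG and 0.261 in Ctrl. The DNA glycosylase *Mbd4* had 2 pairs on opposite sides of 0, with 0.145 in dTAG and 0.0694 in Ctrl for the first and 0.747 in dTAG and 0.816 in Ctrl for the second. *Zmynd8*, a chromatin reader, had 0.611 in dTAG and 0.676 in Ctrl.

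The 6 pairs of pluripotency genes had a median of -0.00387. The largest difference was that of *Dppa4* (0.822 in dTAG, 0.878 in Ctrl), and the pairs of *Sall1*, the LIF receptor *Lifr* and *Tdgf1* differed by 0.0218 or less. Among the 14 pairs of the ubiquitin system the median was 0.00219, and the ligase *Ubr2* had 2 pairs that meet at a pair of neighbouring exons of 99 nt each. Its longer intron at the 5′ sites had 0.308 in dTAG and 0.348 in Ctrl, and that at the 3′ sites had 0.475 in dTAG and 0.507 in Ctrl, and both distances are 169 nt. By position, the upstream exon is joined by the longer intron at the 5′ sites but by the shorter intron at the 3′ sites (0.525 in dTAG, 0.493 in Ctrl). The use of that exon was thus lower in dTAG in the first pair and higher in the second. The cullins *Cul2* and *Cul5* differed by 0.0392 and -0.0217. No pair was found in the 22 genes of the m6A machinery, of which 13 had tested clusters that did not meet the rule.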

How the data were processed

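The authors sequenced 4sU-labelled RNA of 12 samples (6 dTAG, 6 Ctrl), mapped uniquely placed reads to mm10 with STAR 2.5.2b, and clustered split reads with LeafCutter, both clones pooled. The deposited tables list 8706 clusters, of which 7263 were tested, and give for each of 20437 introns a PSI per condition, which is a fraction fitted by the authors' software. They also hold the authors' likelihood ratio, its p-value and adjusted value, a log effect and a delta. Those columns are the authors' own comparison and were not used, so the text holds no test of replicates. Values per sample and read depth were not analysed here.

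Pairs were found by position, and the difference is dTAG minus Ctrl. The strand came from splice motifs in GRCm38 and equalled that of the gene model in 515 of 515 pairs that have both. The 11 pairs with no gene name were outside this check. Annotation was GENCODE vM21. Splice site scores are sums of log2 odds over the capital bases, against the mean base composition of the windows. Pairs were named by rule: the 10 largest and 10 smallest differences, and up to 4 per gene list with the largest absolute difference (8 lists). The others were named after their values were seen. The members and lists were chosen with earlier results of these data known. The search for pairs was tested on simulated data. Python 3.11.15, numpy 2.4.6, scipy 1.17.1, pandas 2.3.3, pysam 0.24.0 and matplotlib 3.10.9 were used. Alternatives were another threshold, the log odds scale, annotated introns only, a shorter distance limit, the strand of gene models, intronic bases only and wider stretches.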

Additional observations from a re-analysis of the deposited data

How the results depend on the processing

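The count of pairs with a difference of at least 0.1 depended on the threshold. At 0.05 it was 102 (64 higher and 38 lower), and at 0.2 it was 8 (7 higher and 1 lower), against 32 (26 and 6) as reported. With only pairs that have both introns annotated it was 16, of which 13 were higher and 3 lower. A natural log odds difference of at least 1 gave 33 pairs, with 23 higher and 10 lower, so the lower side grew by more than 1.5 times. The split by direction and the alternative without the 13 unannotated pairs (26 pairs, 22 higher and 4 lower) were added after the data were seen. GGACT was found in 48.1% of stretches widened by 100 nt on each side, against 36.3% as reported. The median difference over the pairs was -0.00115 with both introns annotated and -0.000729 with sites at most 500 nt apart, against 0.000153 as reported, so its sign was not stable, and the log odds median was 0.00563. No paired analysis was possible because the deposited tables hold 1 value per condition and no replicate could be left out.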
